A study of Mus musculus with 8 samples.

Results

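The genes described here are the chemokine genes and the atypical chemokine receptor genes of the mouse, chosen by symbol: every Ccl or Cxcl gene with a number, Cx3cl1, Xcl1 and Ackr1 to Ackr4. The rule found 44 of the 55401 genes counted. Of these, 16 reached 1 CPM (counts per 1000000 reads of the scaled library size) in at least 2 libraries and are described, and the other 28 are listed as below that level. The data are RNA sequencing counts from 8 libraries of 3 mouse cell lines under a title that names epithelioid hemangioendothelioma, a tumour of the vascular endothelial lineage. EHE26 has 2 libraries, EHE17 has 3 and EHE6 has 3. The labels give the name of the line alone and no genotype, tumour of origin, treatment or passage, so each line is compared with each other line. They do not say whether the libraries of a line came from separate cultures, so the p-values cover only the spread among the libraries at hand, which may be technical.

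Chemokines are small secreted or membrane-bound proteins that attract cells along a gradient, and they act through G protein-coupled receptors on leukocytes and other cells. Atypical chemokine receptors bind chemokines without the usual G protein signal, and take them up, degrade them or carry them across a cell layer. Endothelial cells do both: they present chemokines on heparan sulfate at the vessel wall, and subsets of them express the atypical receptors.

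Library totals were 44620965 to 96237665 counts, so that 1 CPM stood for 45.6 to 90.3 reads. The libraries fell into 2 sets across the lines on the first principal component of log2 CPM. The first set holds replicates 1 and 2 of EHE17 and of EHE6, and the second set holds both EHE26 libraries and replicate 3 of EHE17 and of EHE6. No EHE26 library is in the first set, so differences of EHE26 from the other lines and differences between the sets cannot be fully told apart. EHE17 replicate 3 was at 41.7 on this component, and the other second-set libraries at 126 to 148. The sets were drawn from these same counts, so a gene that splits by set is described only. The share of all tested genes that split is not given here. Of 8 endothelial markers, 8 were at 1 CPM or more in at least 2 libraries, and their list summed to 3717 to 4726 CPM in EHE26, 5651 to 8644 CPM in EHE17 and 2560.4 to 10917 CPM in EHE6. Of 11 leukocyte markers, 3 reached that level (Csf1r, Cd68 and Lyz2). Their list summed to 36.6 to 42.7 CPM in EHE26, 26.3 to 68.7 CPM in EHE17 and 18.6 to 29.8 CPM in EHE6. The pan-leukocyte gene Ptprc stayed between 0.381 and 1.49 CPM in all libraries, and Ncr1, a marker of natural killer cells, had no read in any.

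Across the family, EHE26 had higher transcript levels of Ackr4, Cx3cl1 and Cxcl10. The main edgeR fit, on all 8 libraries with a low-count filter and the line as the only term, called no member lower in any of the 3 comparisons. Some alternative fits did call members lower, as given below. Calls required both an adjusted p under 0.05 in the quasi-likelihood test of edgeR and a log2 fold change of 1 or more in size, and 23 of the 44 members had enough reads to be tested among 18882 genes. In EHE26 against EHE6, 2 members were called higher (Ackr4 and Cxcl10), where 1.26% of all tested genes were called and 1.1% were called higher. In EHE26 against EHE17, 2 were called higher (Ackr4 and Cx3cl1), against 1.08% of all tested genes called and 0.89% called higher. In EHE17 against EHE6 edgeR called 0 members and 0.143% of all tested genes. Of the 23, 4 had an unadjusted p under 0.05 there (Ccl2, Ccl4, Cx3cl1 and Cxcl12), as had 6.9% of all tested genes. DESeq2 called 2, both lower in EHE17 (Cx3cl1 and Cxcl12), and 2.26% of all genes. The comparisons share lines, so that their counts are not independent of each other.

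The libraries of the compared lines did not overlap for a larger number of members. In EHE26 against EHE6, all EHE26 libraries were above all EHE6 libraries for 5 tested members and below them for 2. All tested genes did so in 16% and 15.3%. In EHE26 against EHE17 the counts were 6 above and 6 below, against 18.7% and 20.3% of all tested genes. In EHE17 against EHE6 they were 3 above and 1 below, against 7.25% and 4.94%. The median log2 fold change of the tested members was -0.30 in EHE26 against EHE6, beside -0.11 over all tested genes. It was -0.27 in EHE26 against EHE17, beside -0.11, and 0.15 in EHE17 against EHE6, beside -0.03.

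**Figure D1:**
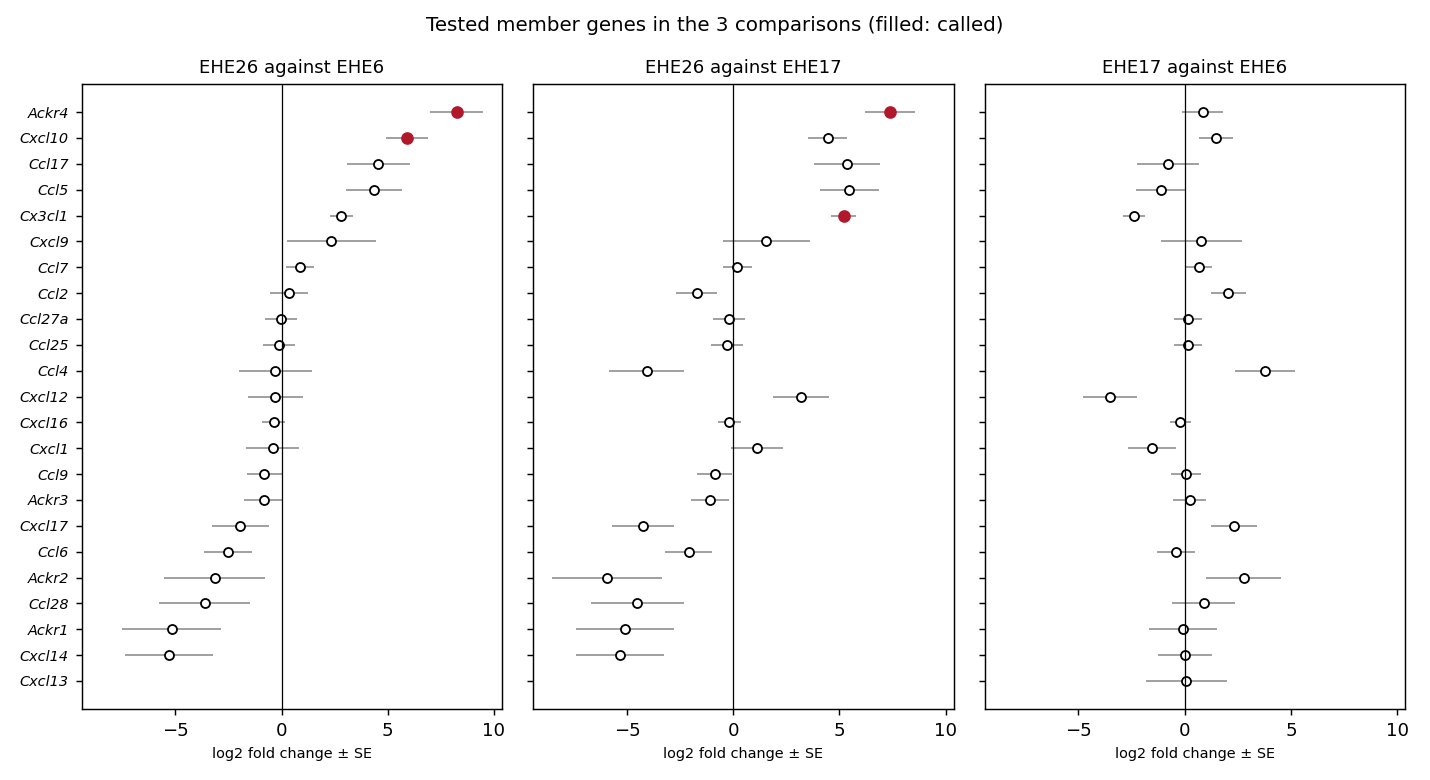
Log2 fold changes of the 23 tested members with their standard errors, in EHE26 against EHE6, EHE26 against EHE17 and EHE17 against EHE6; filled points were called. Cxcl13 has no read in EHE26, so it is left out of both EHE26 panels. Ackr4 is filled in both EHE26 panels, Cxcl10 only against EHE6 and Cx3cl1 only against EHE17, and no point is filled for EHE17 against EHE6.

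The ligands were led by few genes. The 40 chemokine genes and pseudogenes summed to 414 and 229 CPM per kilobase of exon in EHE26, 352, 205 and 387 in EHE17, and 163, 164 and 95.5 in EHE6. Per kilobase, 3 genes held most of this sum in every library, between 84.8% and 97.9%: Cx3cl1, Ccl2 and Cxcl16. Lengths are those of all annotated exons of a gene merged, and the order of genes can depend on this choice. Cxcl12, with 8176 merged bases, was at 78.4 CPM in EHE6 replicate 3, above Cxcl16 (59.6 CPM) and Ccl2 (17.5 CPM). Cx3cl1 was the leading chemokine in both EHE26 libraries and in EHE6 replicate 3, and Ccl2 led in the other 5 libraries. Cx3cl1 held 48.6% and 68.5% of the sum in EHE26, 1.90%, 2.01% and 0.965% in EHE17, and 7.95%, 10.5% and 48.1% in EHE6. The share of Ccl2 was 34.2% and 9.01% in EHE26, 82.9%, 69.9% and 92.4% in EHE17, and 52.0%, 55.1% and 16.1% in EHE6. EHE6 replicate 3, of the second set, thus had shares of Cx3cl1 and Ccl2 nearer to those of EHE26 than to those of the other EHE6 libraries.

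**Figure D2:**
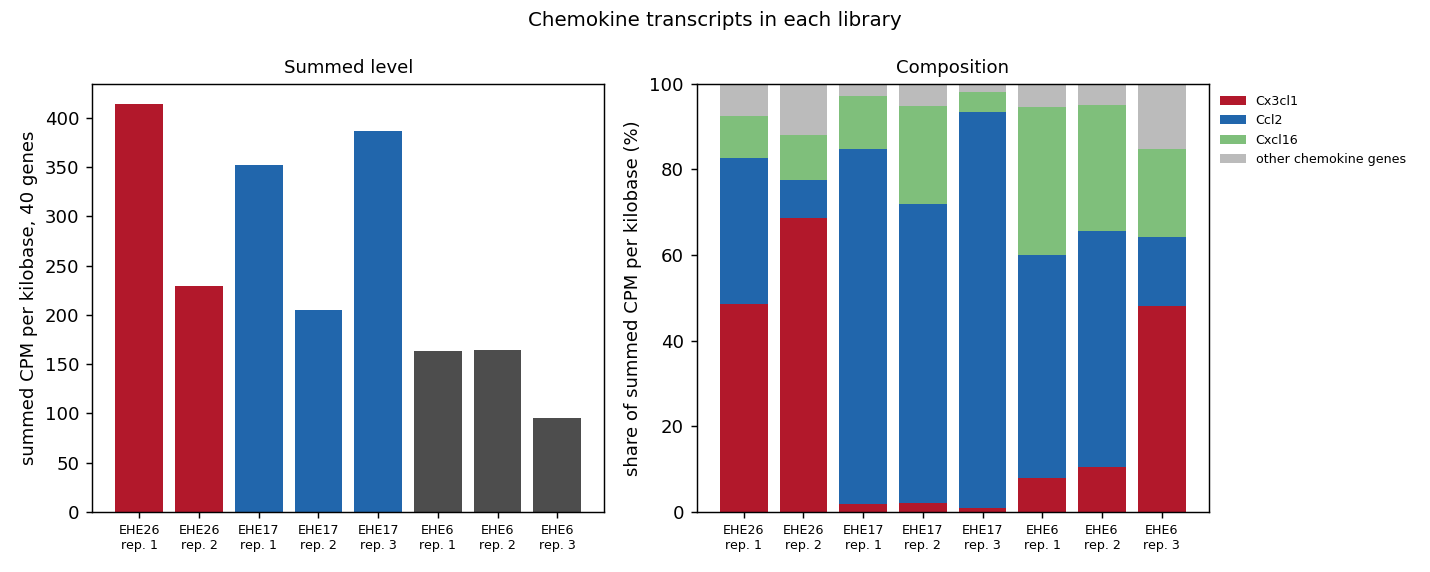
The left panel shows the summed CPM per kilobase of the 40 chemokine genes in each library, and the right panel shows the share of that sum in Cx3cl1, Ccl2, Cxcl16 and all others. Ccl2 (blue) fills 69.9% to 92.4% of the EHE17 bars, and Cx3cl1 (red) is the largest part in both EHE26 bars and in EHE6 replicate 3.

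Cx3cl1 (ENSMUSG00000031778, GRCm38 chromosome 8, 94772009 to 94782427) encodes fractalkine, a membrane-anchored chemokine that holds Cx3cr1-bearing monocytes and lymphocytes to endothelium and is released by the sheddases Adam10 and Adam17. It stood at 790.1 and 618 CPM in EHE26, at 26.4, 16.2 and 14.7 CPM in EHE17, and at 51.0, 67.7 and 180.5 CPM in EHE6. All libraries of EHE26 were above all of EHE6, and these were above all of EHE17, so the lines did not overlap. In bulk RNA, fewer expressing cells and less RNA per cell cannot be told apart. Means were 704 ± 122 CPM in EHE26 (SD, n = 2), 19.1 ± 6.35 CPM in EHE17 and 99.7 ± 70.4 CPM in EHE6 (n = 3 each). The log2 fold change was 5.21 ± 0.60 (SE) in EHE26 against EHE17, with an adjusted p of 0.0107. It was 2.82 ± 0.55 in EHE26 against EHE6 (adjusted p = 0.0595) and -2.39 ± 0.51 in EHE17 against EHE6 (adjusted p = 0.204), and neither passed in this fit. DESeq2 called both, as did edgeR with no low-count filter. For EHE26 against EHE6, edgeR also called it with the replicate block and without EHE6 replicate 3. Within the second set alone, the difference between EHE26 and EHE17 passed at an adjusted p of 0.0160, where 3.58% of tested genes were called; EHE17 then has 1 library, and the 2 EHE26 libraries alone give the spread. The call was lost without EHE17 replicate 1 (0.0715), EHE17 replicate 2 (0.0825), EHE26 replicate 1 (0.0533) or EHE26 replicate 2 (0.0521), with log2 fold changes of 5.02 to 5.51 over all fits that left out 1 library.

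The nearest chemokine genes on chromosome 8 were close to the limit of detection. Ccl17 (94810453 to 94812036), a ligand of Ccr4, was at 0.699 and 0.877 CPM in EHE26, 0.0497, 0 and 0 CPM in EHE17, and 0.0539, 0 and 0.0420 CPM in EHE6. Its EHE26 libraries lay above the others, at a level below the limit set for description, and no difference passed in edgeR. DESeq2 called Ccl17 higher in EHE26 against EHE17, among 9.4% of all genes. Ccl22, on the other side of Cx3cl1 at 94745590 to 94751699 and also a Ccr4 ligand, did not exceed 0.0282 CPM in any library. The sheddase gene Adam10 stood at 339 and 337 CPM in EHE26, 335, 191 and 377 CPM in EHE17, and 261, 333 and 343 CPM in EHE6, with overlapping lines.

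Cxcl16 (ENSMUSG00000018920, chromosome 11, 70453983 to 70459984), the other membrane-anchored chemokine and the ligand of Cxcr6, was abundant in all lines. It was at 121 and 72.1 CPM in EHE26, 131, 142 and 53.5 CPM in EHE17, and 171, 146 and 59.6 CPM in EHE6. The lines overlapped, and the lowest value of EHE17 and of EHE6 was in the second set. No log2 fold change was beyond its error: -0.38 ± 0.56 in EHE26 against EHE6, -0.18 ± 0.55 in EHE26 against EHE17 and -0.20 ± 0.49 in EHE17 against EHE6 (adjusted p = 0.798, 0.890 and 1). Cxcl16 shares 552 exon bases with Zmynd15 on the other strand. The sources used here do not say whether counting used strand, so the reads of such pairs cannot be told apart.

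Cxcl10 (ENSMUSG00000034855, chromosome 5, 92346638 to 92348889) encodes an interferon-inducible ligand of Cxcr3 that draws in activated T cells and natural killer cells. It was at 36.6 and 19.4 CPM in EHE26, 1.18, 2.38 and 0.241 CPM in EHE17, and 0.485, 0.198 and 0.714 CPM in EHE6. Both EHE26 libraries lay above all others, and EHE17 and EHE6 overlapped. The mean was 28.0 ± 12.1 CPM in EHE26 (SD, n = 2), 1.27 ± 1.07 CPM in EHE17 and 0.466 ± 0.259 CPM in EHE6 (n = 3 each). Against EHE6 the log2 fold change was 5.91 ± 0.98 (adjusted p = 0.0327), and within the second set alone it also passed (adjusted p = 0.0438), where 1.95% of tested genes were called, again with the spread of the EHE26 libraries alone. Against EHE17 it was 4.46 ± 0.91 (adjusted p = 0.0738, and called by DESeq2), and EHE17 against EHE6 gave 1.46 ± 0.80 (adjusted p = 0.846). Against EHE17, edgeR also called Cxcl10 with no low-count filter (0.00634), with the replicate block (0.0365), with the compared lines alone (0.0422) and without EHE6 replicate 3 (0.0251). More of all genes were called in these fits as well. Within the second set, where EHE17 has 1 library, the value was 6.85. The call against EHE6 was lost without EHE6 replicate 1 (0.177), EHE6 replicate 2 (0.138), EHE17 replicate 1 (0.0800), EHE17 replicate 2 (0.05002), EHE26 replicate 1 (0.175) or EHE26 replicate 2 (0.0957). Cxcl10 shares 133 exon bases with Art3 on the other strand, which had 16 and 0 reads in EHE26. The other Cxcr3 ligands lie beside it on chromosome 5. Cxcl9 was at 1.47 CPM in EHE26 replicate 1 and had no read in EHE26 replicate 2, and Cxcl11, annotated as a polymorphic pseudogene, was at 1.07 and 0.0877 CPM in EHE26, at most 0.0373 CPM in EHE17 and at most 0.0282 CPM in EHE6. Cxcl10 was therefore the only one of the 3 to reach 1 CPM in both EHE26 libraries.

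**Figure D3:**
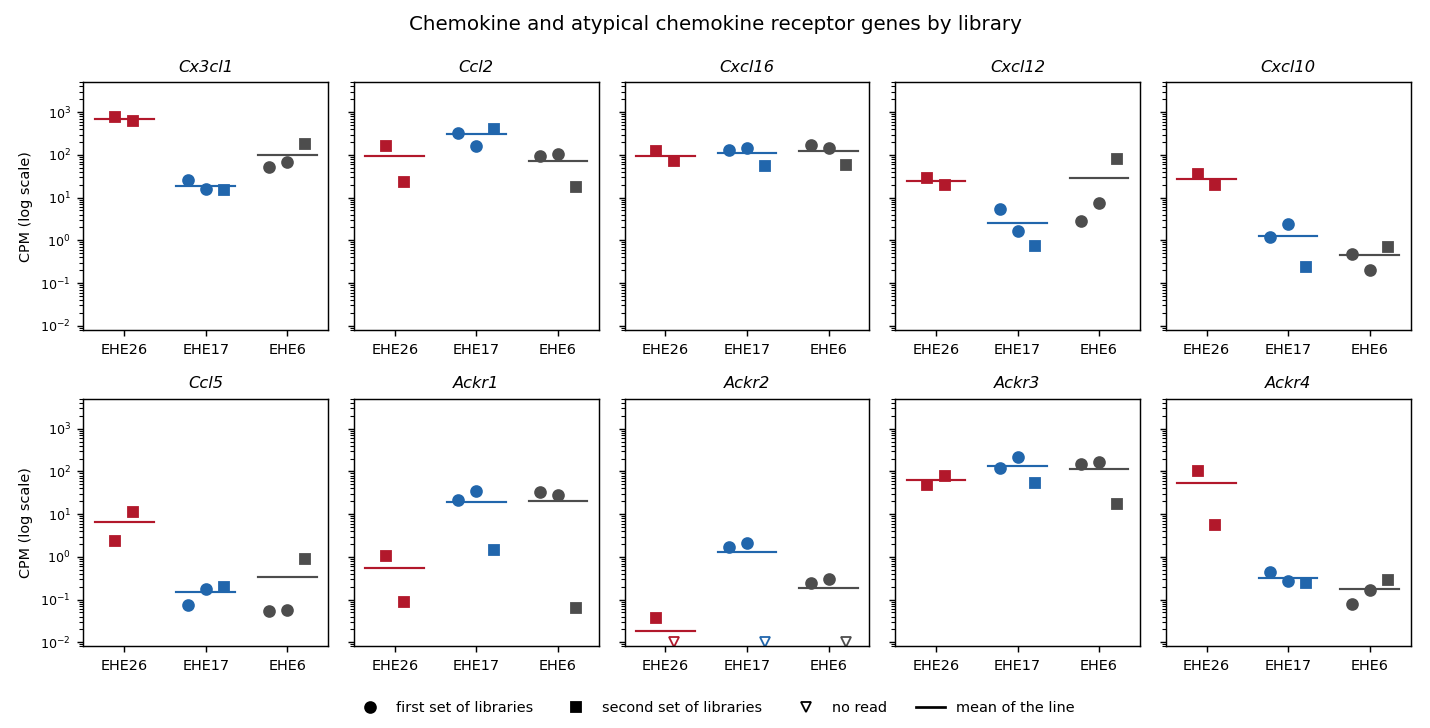
CPM (log axis) of the 10 members with values given in every library, by line; circles are the first set of libraries, squares the second set, open triangles libraries with no read and horizontal lines the mean of the line. For Cx3cl1, Cxcl10, Ccl5 and Ackr4 both EHE26 libraries are above all others, while for Ackr1 the squares of all 3 lines lie below the circles.

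The promoters of the called members are shown for the motifs of the pathways tested beside them, as RefSeq sequence on GRCm38.p6 from 250 bases before to 50 bases after the start, 5′ to 3′ on the strand of the gene. Capitals mark matches to the interferon-stimulated response element (ISRE, searched as GAAANNGAAA) and the kappa B motif (GGGANNTTCC). The interferon gamma-activated site (TTCNNNGAA) and the TEAD motif (GGAATG), the site of the partners of YAP and TAZ, were searched as well, each on both strands. The Cxcl10 window is chr5:92348840-92349139 (minus strand), the Cx3cl1 window chr8:94771930-94772229 (plus strand) and the Ackr4 window chr9:104126594-104126893 (minus strand).
Cxcl10: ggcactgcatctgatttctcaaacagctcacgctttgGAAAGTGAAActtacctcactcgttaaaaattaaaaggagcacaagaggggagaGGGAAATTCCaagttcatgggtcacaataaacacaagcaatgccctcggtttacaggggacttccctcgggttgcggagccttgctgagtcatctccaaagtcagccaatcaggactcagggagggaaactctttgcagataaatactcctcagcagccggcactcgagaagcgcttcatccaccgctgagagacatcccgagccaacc
Cx3cl1: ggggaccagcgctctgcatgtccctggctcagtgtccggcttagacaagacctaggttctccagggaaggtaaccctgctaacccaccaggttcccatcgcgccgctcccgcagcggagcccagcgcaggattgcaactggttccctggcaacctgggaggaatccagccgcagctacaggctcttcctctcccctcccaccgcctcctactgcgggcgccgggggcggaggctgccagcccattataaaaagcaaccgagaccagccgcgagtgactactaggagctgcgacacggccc
Ackr4: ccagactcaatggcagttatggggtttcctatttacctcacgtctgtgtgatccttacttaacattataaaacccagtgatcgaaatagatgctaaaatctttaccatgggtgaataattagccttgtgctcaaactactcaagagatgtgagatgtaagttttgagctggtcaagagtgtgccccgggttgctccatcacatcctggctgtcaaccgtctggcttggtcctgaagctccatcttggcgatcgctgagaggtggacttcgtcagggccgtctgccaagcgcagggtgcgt

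The Cxcl10 window held an ISRE match at -213 and a kappa B match at -159 from the start. Over 32851 promoter windows of this length, 3.44% held the ISRE letters, 1.47% the kappa B letters, 8.3% the gamma-activated site and 14.7% the TEAD letters. The Cx3cl1 and Ackr4 windows held none of the 4 motifs, which says only that these letters are not in these 300 bases. Windows were found for 31 members, 12 of them described. No window was found for the described members Ccl2, Ccl5, Ccl7 and Cxcl16, so their promoters were not searched. Among the 12, Cxcl10 was the only one with an ISRE or a kappa B match, and Cxcl13 was the only one with a TEAD match. Of the members below the level for description, Ccl19 and Cxcl14 held the ISRE letters, and Ccl1, Cxcl1, Cxcl2 and Cxcl3 held the kappa B letters. A match is a description of the sequence and not a measured binding site.

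The CC chemokines with the most reads come from the cluster on chromosome 11. Ccl2 (ENSMUSG00000035385, 82035571 to 82037453), which recruits Ccr2-bearing monocytes, was at 161 and 23.5 CPM in EHE26, 332, 163 and 407 CPM in EHE17, and 96.6, 103 and 17.5 CPM in EHE6. Every EHE17 library was above every library of the other lines, and EHE26 and EHE6 overlapped. These differences did not pass: the log2 fold change was 0.35 ± 0.90 in EHE26 against EHE6, -1.70 ± 0.96 in EHE26 against EHE17 and 2.05 ± 0.84 in EHE17 against EHE6 (adjusted p = 0.894, 0.394 and 0.688). The value of EHE26 against EHE6 was -1.62 without EHE26 replicate 1. Ccl7, the neighbouring gene and another Ccr2 ligand, was at 4.49 and 1.40 CPM in EHE26, 2.68, 1.33 and 3.71 CPM in EHE17, and 1.89, 1.81 and 1.18 CPM in EHE6, with overlapping lines.

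Ccl5 (ENSMUSG00000035042, chromosome 11, 83525778 to 83530518), which draws T cells and monocytes, was at 2.39 and 11.03 CPM in EHE26, 0.0746, 0.177 and 0.201 CPM in EHE17, and 0.0539, 0.0564 and 0.882 CPM in EHE6. EHE26 lay above all other libraries, and its own libraries differed widely. The log2 fold change was 4.36 ± 1.33 in EHE26 against EHE6 and 5.47 ± 1.39 in EHE26 against EHE17, and neither passed (adjusted p = 0.200 and 0.127). DESeq2 called both, among 8.84% and 9.4% of all genes. So did edgeR with the replicate block (0.0245 and 0.0152) and without EHE6 replicate 3 (0.0109 and 0.00909). Against EHE17, edgeR also called Ccl5 with no low-count filter (0.0267) and with the compared lines alone (0.0222). More of all genes were called in these fits as well, and no other edgeR fit called Ccl5. Ccl4, another CC chemokine of that chromosome and below the level for description, was at 0.460, 0.398 and 0.201 CPM in EHE17 and at most 0.0673 CPM in all other libraries.

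Cxcl12 (ENSMUSG00000061353, chromosome 6, 117168535 to 117181367), the ligand of Cxcr4 and Ackr3, varied more within EHE6 than between the line means. It was at 28.1 and 19.9 CPM in EHE26, 5.33, 1.68 and 0.742 CPM in EHE17, and 2.76, 7.31 and 78.4 CPM in EHE6. EHE26 lay above EHE17 without overlap, and EHE6 overlapped both, with its replicate 3 the highest library and its other libraries near EHE17. With all 8 libraries and the line as the only term, no difference passed in edgeR. The log2 fold change was -0.30 ± 1.30 in EHE26 against EHE6, 3.21 ± 1.32 in EHE26 against EHE17 and -3.51 ± 1.28 in EHE17 against EHE6 (adjusted p = 0.945, 0.284 and 0.606). Without EHE6 replicate 3, EHE26 against EHE6 gave 2.27. EHE17 against EHE6 gave -0.51 within the first set and -6.72 within the second, which sets 1 library against 1 and is given as a value, not as a test. EHE26 against EHE17 gave 5.01 within the second set, a fit that put Cxcl12 past the call thresholds. EHE17 has 1 library there, so this too is given as a value. The fibroblast markers Pdgfra and Pdgfrb were also high in EHE26 and in EHE6 replicate 3. Pdgfra was at 77.5 and 59.8 CPM in EHE26, 1.76, 1.70 and 1.14 CPM in EHE17, and 3.87, 5.21 and 252 CPM in EHE6. The whole list of 7 fibroblast markers, each at 1 CPM or more in at least 2 libraries, did not follow Cxcl12. It summed to 1095 and 346 CPM in EHE26, 1105, 1600.1 and 1803 CPM in EHE17, and 436, 398 and 293 CPM in EHE6, highest in the line where Cxcl12 was lowest, and Lum was at 0 in replicate 3 of EHE17 and of EHE6. The part of these markers in the Cxcl12 values was not tested.

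The remaining described ligands were all under 10 CPM. Cxcl13, which attracts B cells through Cxcr5, had no read in either EHE26 library, 0.808, 2.61 and 0 CPM in EHE17, and 2.52, 0.734 and 0 CPM in EHE6. The floor of 3 counts over the EHE26 libraries is 0.0300 CPM, so the mean was at least 38.0-fold higher in EHE17 and at least 36.1-fold higher in EHE6, counting error aside. The libraries at 0 in EHE17 and EHE6 are those of the second set, to which EHE26 also belongs. Ccl9, Ccl6, Ccl25 and Ccl27a made up the rest. Ccl9 and Ccl6, rodent ligands of Ccr1, reached at most 3.09 and 1.57 CPM. Ccl25, the Ccr9 ligand, ranged from 1.49 to 6.12 CPM and shares 204 exon bases with Elavl1 on the other strand. Ccl27a, a Ccr10 ligand, ranged from 0.336 to 1.32 CPM and has near-identical copies on chromosome 4, so its reads are uncertain. With the line as the only term edgeR called none of these, and DESeq2 called Cxcl13 lower in EHE26 against both other lines. With the replicate block, which matches EHE26 to the other lines by number alone, edgeR also called Cxcl13 in EHE26 against EHE17.

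Of the 28 members below the level for description, 7 had no read in any library: Ccl1, Ccl19, Ccl19-ps1, Ccl19-ps3, Ccl21a, Ccl26 and Xcl1. The other 21 were Ccl3, Ccl4, Ccl8, Ccl11, Ccl12, Ccl17, Ccl20, Ccl21b, Ccl22, Ccl24, Ccl27b, Ccl28, Cxcl1, Cxcl2, Cxcl3, Cxcl5, Cxcl9, Cxcl11, Cxcl14, Cxcl15 and Cxcl17. The neutrophil attractants Cxcl1, Cxcl2, Cxcl3, Cxcl5 and Cxcl15 reached at most 1.39 CPM, in Cxcl1 of EHE6 replicate 3. Just outside the limit of 1 CPM in 2 libraries were Cxcl9, Cxcl1 and Cxcl11, each past 1 CPM in 1 library. Just inside it were Ccl27a and Ccl6, whose next-to-highest values were 1.14 and 1.56 CPM.

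Among the atypical receptors, EHE26 differed from the other lines in Ackr4. Ackr4 (ENSMUSG00000079355, chromosome 9, 104084157 to 104126933) encodes a scavenger of Ccl19, Ccl21 and Ccl25 known from lymphatic endothelium of lymph nodes. It was at 103 and 5.50 CPM in EHE26, 0.447, 0.266 and 0.241 CPM in EHE17, and 0.0808, 0.169 and 0.294 CPM in EHE6. Both EHE26 libraries were above all others, and they differed from each other by a larger factor than any pair of libraries within the other lines. In reads, these values were 5608 and 251 in EHE26, 36, 24 and 12 in EHE17, and 6, 12 and 14 in EHE6. The log2 fold change was 8.25 ± 1.23 in EHE26 against EHE6 (adjusted p = 0.0227) and 7.40 ± 1.18 in EHE26 against EHE17 (adjusted p = 0.0348). EHE17 against EHE6 gave 0.84 ± 0.97 (adjusted p = 1).

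The size of the Ackr4 difference depended on EHE26 replicate 1. Without it, the log2 fold change was 4.92 in EHE26 against EHE6 and 4.10 in EHE26 against EHE17, and neither passed (adjusted p = 0.118 and 0.182). The call against EHE6 was also lost without EHE6 replicate 1 (0.128) or 2 (0.130) and without EHE17 replicate 1 (0.0527) or 2 (0.0643). The call against EHE17 was lost without EHE6 replicate 1 (0.0614) or 2 (0.0661) and without EHE17 replicate 1 (0.171), 2 (0.177) or 3 (0.0934). Within the second set alone neither passed (adjusted p = 0.189 and 0.182). Ackr4 shares 479 exon bases with Acad11 on the other strand, which had 702 and 324 reads in EHE26 and 172 to 2080 reads in the other libraries. Of the ligands of Ackr4, Ccl25 was the only one described, and Ccl19 and Ccl21a had no read.

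Ackr3 (ENSMUSG00000044337, chromosome 1, 90203980 to 90216751), which takes up Cxcl12, was the atypical receptor with the highest mean per kilobase in all 3 lines, at 18.6 CPM per kilobase in EHE26, 39.6 in EHE17 and 33.5 in EHE6. In EHE26 replicate 1 alone, Ackr4 was higher, at 103 CPM over 5380 merged bases beside 48.6 CPM over 3348 for Ackr3. Ackr3 was at 48.6 and 76.2 CPM in EHE26, 121, 223 and 53.4 CPM in EHE17, and 151, 168 and 17.6 CPM in EHE6. The lines overlapped, and the lowest libraries of EHE17 and EHE6 were those of the second set. Log2 fold changes were -0.85 ± 0.90 in EHE26 against EHE6, -1.09 ± 0.91 in EHE26 against EHE17 and 0.24 ± 0.78 in EHE17 against EHE6 (adjusted p = 0.701, 0.564 and 1). With the set as a term, the first of these was 1.24.

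Ackr1 (ENSMUSG00000037872, chromosome 1, 173331886 to 173333750), the Duffy antigen, binds many inflammatory chemokines and is known from venular endothelium and red blood cells. It was at 1.03 and 0.0877 CPM in EHE26, 21.6, 35.1 and 1.44 CPM in EHE17, and 33.5, 27.9 and 0.0630 CPM in EHE6. The 4 libraries of the first set were at 21.6 to 35.1 CPM and the 4 of the second set at 0.0630 to 1.44 CPM, without overlap. Log2 fold changes between the lines were -5.18 ± 2.33 in EHE26 against EHE6, -5.10 ± 2.32 in EHE26 against EHE17 and -0.08 ± 1.61 in EHE17 against EHE6, and none passed in edgeR (adjusted p = 0.324, 0.313 and 1). DESeq2 called Ackr1 lower in EHE26 against EHE6 (adjusted p = 0.0196) and against EHE17 (0.0217), and edgeR with the replicate block called it against EHE17 (0.0368). That block matches EHE26 libraries to the other lines by number alone, and to EHE17 libraries of the first set. With the set as a term the log2 fold change was 0.33 in EHE26 against EHE6 and -0.53 in EHE26 against EHE17. Ackr1 shares 361 exon bases with Cadm3 on the same strand.

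Ackr2 (ENSMUSG00000044534, chromosome 9, 121898355 to 121911074), which degrades inflammatory CC chemokines and is known from lymphatic endothelium, was under 3 CPM in every library. It was at 0.0368 and 0 CPM in EHE26, 1.73, 2.13 and 0 CPM in EHE17, and 0.242, 0.310 and 0 CPM in EHE6. All reads of EHE17 and EHE6 thus came from the first set, and no difference passed with the line as the only term (adjusted p = 0.564 in EHE26 against EHE6, 0.303 in EHE26 against EHE17 and 0.913 in EHE17 against EHE6). With the replicate block, which matches EHE26 to the other lines by number alone, EHE26 against EHE17 passed (0.0330). With the set as a term its log2 fold change was 2.66, beside -5.92 with the line as the only term. The 5 lymphatic markers, all at 1 CPM or more in at least 2 libraries, summed to 245 to 330 CPM in EHE26, 2368 to 3750 CPM in EHE17 and 85.6 to 694 CPM in EHE6. The highest sum was that of EHE17 replicate 3, in which Ackr2 had no read.

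Gpr182 and Cxcr4 were also lower in every second-set library, by a smaller factor in EHE17 replicate 3 than for Ackr1. Gpr182, an endothelial receptor that also scavenges chemokines, was at 10.7 and 0.790 CPM in EHE26, 160.1, 231 and 68.9 CPM in EHE17, and 138, 139 and 1.03 CPM in EHE6. Ccrl2, which presents chemerin, ranged from 0.210 to 3.64 CPM. Of 18 signalling chemokine receptors, 8 were tested, 3 reached 1 CPM in at least 2 libraries (Cxcr4, Cxcr3 and Cxcr6), and none was called. Cxcr4, the signalling receptor of Cxcl12, was at 20.9 and 5.26 CPM in EHE26, 132, 128 and 88.8 CPM in EHE17, and 216, 150.3 and 8.05 CPM in EHE6. EHE17 lay above EHE26, while EHE6 overlapped both. Cxcr6 reached 4.25 CPM and Cxcr3 3.85 CPM, each in a first-set library of EHE6. Cx3cr1, the receptor of fractalkine, did not exceed 0.325 CPM, and Ccr2, the receptor of Ccl2, did not exceed 0.121 CPM.

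Some markers of endothelial and of epithelial cells were likewise lower in the second set. Kdr, the endothelial receptor of VEGF, was at 102 and 46.2 CPM in EHE26, 569, 669 and 243 CPM in EHE17, and 829, 1042 and 22.1 CPM in EHE6. Epcam, an epithelial adhesion gene, was at 0.0368 and 0 CPM in EHE26, 3.89, 8.14 and 0 CPM in EHE17, and 9.79, 4.97 and 0 CPM in EHE6. Of 5 epithelial markers 4 reached 1 CPM in at least 2 libraries, and Epcam, Krt8 and Cdh1 were lower in every library of the second set, with Epcam and Cdh1 at 0 in replicate 3 of EHE17 and of EHE6. Krt18 went the other way in EHE6, and the list as a whole did not follow the receptors: it summed to 3.09 and 28.6 CPM in EHE26, 19.1, 29.3 and 1.04 CPM in EHE17, and 35.8, 20.1 and 89.8 CPM in EHE6, highest in EHE6 replicate 3, where Ackr1 was lowest. The part of these markers in the receptor values was not tested.

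**Figure D4:**
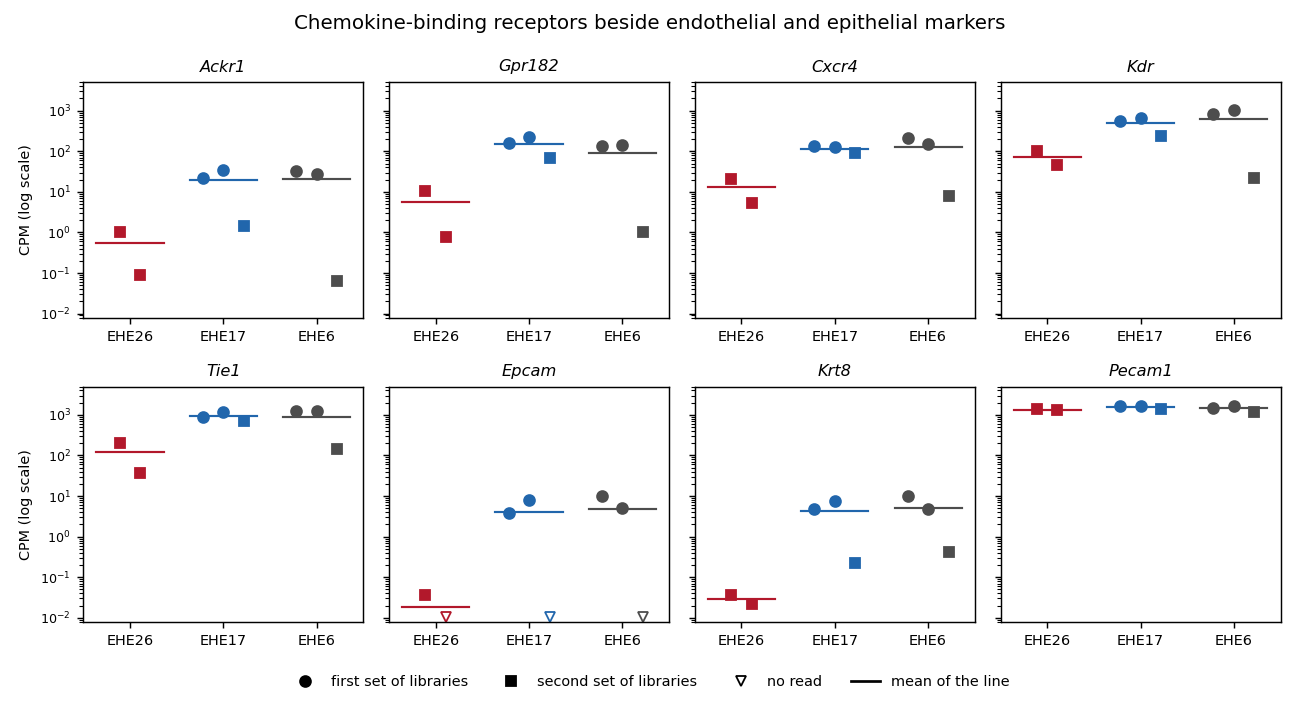
CPM (log axis) of Ackr1, Gpr182 and Cxcr4 beside the endothelial markers Kdr, Tie1 and Pecam1 and the epithelial markers Epcam and Krt8, with circles for the first set, squares for the second set, open triangles for no read and lines for the mean of the line. The squares lie below the circles for Ackr1, Gpr182, Cxcr4, Kdr and Tie1, while Pecam1 stays near the same level in all libraries.

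Genes known to act on the members were called in the interferon group and, for Sdc2, among the heparan sulfate genes. Among the interferon regulators, Stat2 and Irf7 were called higher in EHE26 against both other lines and Irf9 in EHE26 against EHE6, and none was called in EHE17 against EHE6. Stat2, which carries the signal of type I interferons to the nucleus, was at 201 and 236 CPM in EHE26, 29.2, 36.3 and 35.6 CPM in EHE17, and 11.4, 14.3 and 31.2 CPM in EHE6. Both EHE26 libraries were above all others, and EHE17 and EHE6 overlapped. The log2 fold change was 3.53 ± 0.43 in EHE26 against EHE6 (adjusted p = 0.00931) and 2.70 ± 0.42 in EHE26 against EHE17 (adjusted p = 0.0327). Of 14 genes of the NF-kB pathway, which also drives chemokine genes, none was called in any comparison, and their median was 0.02 in EHE26 against EHE6, -0.46 in EHE26 against EHE17 and 0.46 in EHE17 against EHE6.

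Among 16 heparan sulfate carriers and enzymes, which hold chemokines at the cell surface, Sdc2 was the only one called. It was at 128 and 105 CPM in EHE26, 7.83, 5.74 and 10.6 CPM in EHE17, and 19.7, 22.4 and 44.9 CPM in EHE6, and the lines did not overlap. Its log2 fold change in EHE26 against EHE17 was 3.85 ± 0.44 (adjusted p = 0.0107). No gene was called among the 9 tested receptor partners, the 7 tested proteases that trim or shed chemokines and the 10 tested inflammatory cytokines and their receptors.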

How the data were processed

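Counts per gene from polyA-selected RNA were deposited by the authors as raw counts for 8 libraries, with reads aligned by HISAT2 to mm10 per the submitters' processing notes; the counting tool, annotation and strand setting are not given in the sources used here. Symbols and positions came from GENCODE M21 (GRCm38), which holds 55141 of the 55401 identifiers; the rest held at most 0.0181% of a library's counts. The members and lists were chosen with earlier results of these data known.

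Counts were scaled with TMM, and filterByExpr, grouped by line, kept 18882 genes. The line was the only term of a quasi-likelihood fit in edgeR 4.0.16 (R 4.3.3) on all 8 libraries, with a two-sided test, Benjamini-Hochberg adjustment over all tested genes, and the call thresholds given above. The common biological coefficient of variation was 0.600. The standard error is the log2 fold change divided by the square root of F. CPM uses the TMM-scaled library size, and floors (3 counts over a line) cover counting error only. The code was tested on simulated data.

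Values in every library are given for the 4 atypical receptors, called members and members at 10 CPM or more in 1 library; genes of related lists are named where called, where a count of 5 or fewer needs them or where they are signalling receptors at 1 CPM or more in 2 libraries. Ccl17, Ccl22, Ccl4, Ccl7, Cxcl9, Cxcl11, Adam10, Gpr182, Ccrl2, Cx3cr1, Ccr2 and the marker genes named with values were chosen with their values known. Results that need items withheld for evaluation are not reported here.

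Same-numbered libraries of EHE17 and EHE6 deviated together from their line means (r = 0.13, 0.18 and 0.57 over tested genes). The main test did not pair them, and a block by replicate number was run as an alternative. For numbers 1 and 2 the unlike-numbered pairs correlated more (0.54 and 0.62), so the numbers are not shown to be pairs. Alternatives were DESeq2 1.42.0, size factors in place of TMM, no low-count filter, no minimum fold change, the replicate block, the set of libraries as a term, each set alone, the compared lines alone, and leaving out each library.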

Additional observations from a re-analysis of the deposited data

How the results depend on the processing

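Counts of called members moved as follows. In EHE26 against EHE6 the count of 2 was 5 with the replicate block, 6 by DESeq2, and 1 within the second set alone or with the compared lines alone (Cxcl10 in both); leaving out 1 library gave 0 to 4. In EHE26 against EHE17 the count of 2 was 8 with the replicate block and 8 by DESeq2, 5 with the compared lines alone, 4 with no low-count filter, and 1 with the set as a term (Cx3cl1); leaving out 1 library gave 0 to 5. In both comparisons the highest of these counts came without EHE6 replicate 3. In EHE26 against EHE17, Cxcl17 was called lower by DESeq2, with the compared lines alone and without EHE6 replicate 3. The replicate block called Cxcl14 lower in EHE26 against both other lines. Calls over all genes moved as well. In EHE26 against EHE6, the 237 calls became 1459 with the replicate block, 1585 by DESeq2 and 126 with the compared lines alone. Without EHE6 replicate 3 they became 1632. In EHE26 against EHE17, the 203 calls became 1860 with the replicate block, 1685 by DESeq2 and 764 with the compared lines alone. They became 745 with no low-count filter, 319 with the set as a term and 1415 without EHE6 replicate 3. EHE26 libraries share only a number with the other lines. In EHE17 against EHE6 the count of 0 was 1 with no low-count filter (Cx3cl1), and 2 within the second set alone or by DESeq2 (Cx3cl1 and Cxcl12), where the second set has 1 library of each line and a spread from the EHE26 libraries alone, so it is no test of these lines; the replicate block, which pairs these lines, changed no call of a member there, nor did leaving out any library. The cause of these moves was not tested.

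For the 10 members given in every library, 30 log2 fold changes had 466 alternative values: 380 kept direction and side of the threshold, 25 lost a call, 28 gained one and 33 changed sign, none of these with a call. With the set as a term, signs changed in EHE26 against EHE6 for Ackr1 (0.33), Ackr2 (5.42), Ackr3 (1.24) and Cxcl16 (0.68), in EHE26 against EHE17 for Ackr2 (2.66), Ackr3 (0.64) and Cxcl16 (0.87), and in EHE17 against EHE6 for Ackr1 (0.86). Within the second set alone they changed in EHE26 against EHE6 for Ackr1 (3.11), Ackr3 (1.83) and Cxcl16 (0.70), in EHE26 against EHE17 for Ackr3 (0.23) and Cxcl16 (0.85), and in EHE17 against EHE6 for Ackr1 (4.46), Ackr4 (-0.29) and Cxcl10 (-1.56). With the replicate block they changed for Ackr1 in EHE17 against EHE6 (0.99, and 0.89 with the compared lines alone, a fit chosen after seeing the data) and in EHE26 against EHE6 for Ccl2 (-0.15) and Cxcl12 (1.16). Leaving out 1 library gave, in EHE17 against EHE6, -0.82 to 0.47 for Ackr1, -0.35 to 0.65 for Ackr3, -1.62 to 1.42 for Ccl5 and -0.52 to 0.13 for Cxcl16. In EHE26 against EHE6 it gave -1.62 to 1.18 for Ccl2 and -0.84 to 2.27 for Cxcl12, and in EHE26 against EHE17 -0.60 to 0.16 for Cxcl16. The number of members described was 16 on the plain CPM scale as well.

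EHE26 has 2 libraries, both in the second set, and each set holds at most 2 libraries of a line; 1 CPM stood for at least 45.6 reads in every library.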
